A study of Mus musculus with 9 samples.

Results

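RAW264.7 cells, a mouse macrophage line that forms osteoclast-like cells under the cytokine RANKL, were compared after 3 days with RANKL plus uridine (UD) and with RANKL alone. Poly(A)-selected RNA was sequenced in 9 libraries, 3 each of untreated control cells, cells given RANKL and cells given RANKL + UD, and the comparison sets the 3 RANKL + UD libraries against the 3 RANKL libraries. The line came from a virus-induced tumour, so the libraries share 1 genetic source and carry no difference between animals. The RANKL + UD and RANKL groups both received RANKL, and control cells received neither agent. The dose of UD used for these libraries is not named in the sources used here. The comparison took in genes with at least 1 FPKM in at least 3 of the 9 libraries, which was 11995 of the 56691 genes in the table. A single group could meet this limit, so a gene that reached it only with RANKL entered through the group where it was high. FPKM is the number of reads on a gene scaled by the length of its exons and by the size of the library. Within the comparison, 16 lists of genes for secreted proteins, cell-surface proteins, lipid metabolism and mitosis were described. The lists were chosen with earlier results of these data known, and 741 of their 1216 members were tested. The other members fell below the limit, apart from 4 that were not matched to the table.

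RANKL is a membrane-bound and secreted member of the TNF family that drives macrophage precursors to stop dividing, fuse and become bone-resorbing osteoclasts. Macrophages sense their surroundings through a dense set of surface receptors, and they act on their neighbours through cytokines, chemokines, proteases and lipoproteins. Cholesterol and phospholipids build the membranes that fusion and the ruffled border use. Entry into mitosis depends on cyclin B with Cdk1, on Aurora and Polo-like kinases, and on the kinetochore that ties each chromosome to the spindle.

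In RANKL + UD against RANKL, genes of the mitotic machinery rose together, most groups of secreted and surface genes held more genes that fell than rose, and lipid genes went both ways by pathway. Over all tested genes, 2233 (18.6%) were higher and 2418 (20.2%) were lower at an adjusted p under 0.05 by the quasi-likelihood test of edgeR, adjusted after Benjamini and Hochberg. When libraries were scaled by their total counts instead of TMM, the test gave 3348 higher and 1709 lower genes, so the balance of the directions depends on the scaling, and this scaling moved the median of all genes by 0.086 on the log2 scale. With a change over 1.5-fold also required, 525 genes (4.38%) were higher and 658 (5.49%) lower. The 3 mitosis lists had 147 of 194 tested genes higher (75.8%) and 5 lower. The 9 lists of secreted and surface genes had 166 of 361 lower (46.0%) and 44 higher (12.2%), and 81 of them (22.4%) were lower by over 1.5-fold. These lists also held some protease inhibitors that act mainly inside cells. The 4 lipid lists had 39 of 186 higher (21%) and 54 lower (29%), and the first of these shares is near that of all genes.

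**Figure D1:**
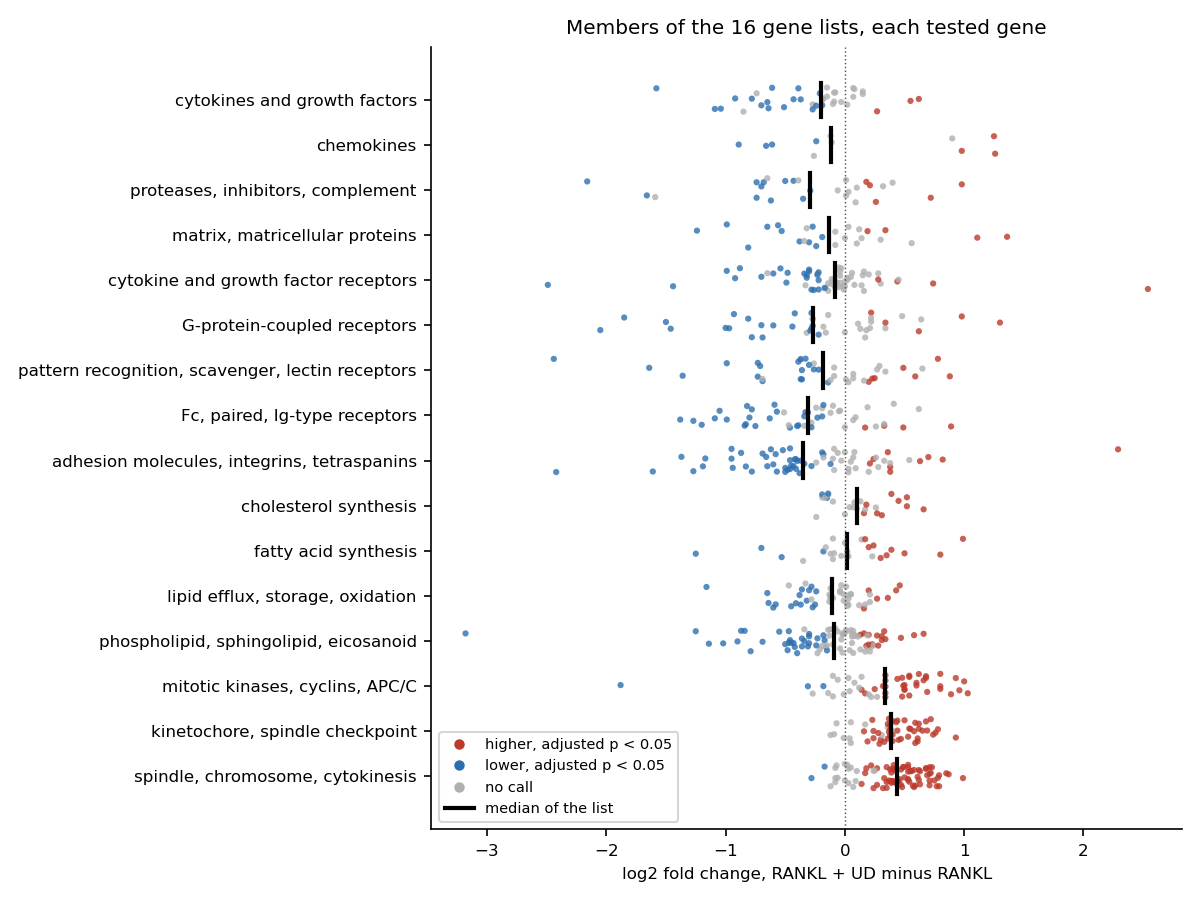
Each point is 1 tested gene, placed by its log2 fold change in RANKL + UD minus RANKL (horizontal axis, TMM scaling, 3 libraries per group) and by its list, with red for higher, blue for lower and grey for no call at an adjusted p under 0.05. The black bars are list medians, which ran from −0.35 for adhesion molecules, integrins and tetraspanins to 0.44 for spindle, chromosome and cytokinesis genes.

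The annotation that the authors deposited with the table allowed counts without the hand-made lists, for terms that were also picked by hand. Of 385 tested genes annotated to the extracellular space, 137 were lower (35.6%, against 20.2% of all genes) and 48 higher (12.5%, against 18.6%). Of 271 genes annotated to the cell surface, 113 were lower (41.7%) and 36 higher (13.3%). Of 33 genes with cytokine activity, 13 were lower (39.4%) and 2 higher (6.06%). Of 323 genes annotated to cell division, 135 were higher (41.8%, against 18.6% of all genes) and 35 lower (10.8%, against 20.2%). Their median log2 fold change was 0.14. These annotated groups overlap the lists and are not independent of them. The points furthest to the right in the plot of lists were low genes that are named here after their values were seen. Lifr, the receptor of leukaemia inhibitory factor, stood at 0.02, 0 and 0 FPKM with RANKL and 0.06, 0.06 and 0.04 FPKM with RANKL + UD, and the junctional molecule Jam2 stood at 0.08, 0.08 and 0.03 and 0.4, 0.25 and 0.33 FPKM, so these changes rest on few reads. On the left, Cd5l, a secreted macrophage scavenger protein, fell from 1.65, 2.01 and 1.64 to 0.32, 0.24 and 0.45 FPKM (log2 fold change −2.44 ± 0.312).

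Library totals ran from 15951800 to 19746862 counts. TMM factors were 0.959 to 0.962 in the RANKL libraries and 1.01 to 1.03 in the other libraries, and FPKM does not carry them, so a gene with no call can stand slightly higher in FPKM in the RANKL + UD libraries. In FPKM, the RANKL + UD libraries lay all above the RANKL libraries for 4088 genes (34.1%) and all below them for 2114 (17.6%). Macrophage and osteoclast markers were both present in these libraries. The 8 macrophage markers summed to 2490 to 2730 FPKM with RANKL and 2170 to 2300 FPKM with RANKL + UD, with 6 lower and 1 higher. The 8 osteoclast markers summed to 2400 to 2580 FPKM with RANKL and 1580 to 1620 FPKM with RANKL + UD, and the 7 tested were lower. The 18 markers of lymphoid, endothelial, epithelial, erythroid, fibroblast and osteoblast cells summed to at most 1.11 FPKM per lineage group in any library. In RNA from a whole culture, fewer cells of a type and less RNA per cell cannot be told apart, and the part of the lower osteoclast markers in the results below was not tested. Below, values are given library by library in replicate order, fold changes are on the log2 scale as RANKL + UD minus RANKL with their standard error, and n = 3 libraries per group. Shares of genes that rose or fell in a list stand against 18.6% higher and 20.2% lower among all tested genes. The labels call the libraries replicate biosamples, and if they were not separate cultures the p-values measure technical spread.

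Of the secreted cytokines and growth factors, 17 of 38 tested genes fell (44.7%) and 3 rose (7.89%), with a median log2 fold change of −0.20. The decreases covered TNF family ligands, the interleukin-1 receptor antagonist and growth factors for vessels and platelet-derived growth factor B. Tnfsf8, the ligand of CD30, was 30.9, 29.2 and 29.4 FPKM in the RANKL libraries and 14.4, 16.4 and 15.3 FPKM in the RANKL + UD libraries (log2 fold change −1.04 ± 0.0796, edgeR adjusted p = 2.23e-09). Its control libraries stood at 0.25, 0.32 and 0.08 FPKM, so that the RANKL + UD libraries lay between the other groups without overlap. Il1rn, which encodes the interleukin-1 receptor antagonist, was 38.2, 35.99 and 38.2 FPKM in the RANKL libraries and 20.7, 20.1 and 22.1 FPKM in the RANKL + UD libraries (log2 fold change −0.92 ± 0.0535, edgeR adjusted p = 4.33e-11). Its control libraries were at 11.3, 10.7 and 10.3 FPKM, below both groups. Tnfsf12, which encodes TWEAK, was 7.4, 8.3 and 8.57 FPKM in the RANKL libraries and 3.22, 2.75 and 2.6 FPKM in the RANKL + UD libraries (log2 fold change −1.58 ± 0.178, edgeR adjusted p = 4.87e-07). The groups did not overlap, but a read-through gene, Tnfsfm13, lies on the same strand and the split of reads between them is uncertain. Metrnl, a secreted meteorin-like factor, was 15.8, 17.3 and 16.1 FPKM in the RANKL libraries and 9.14, 8.19 and 7.15 FPKM in the RANKL + UD libraries (log2 fold change −1.09 ± 0.0988, edgeR adjusted p = 2.48e-08). All 3 RANKL + UD libraries were lower than every RANKL library, and control libraries were higher than both at 25.8, 28.2 and 28.97 FPKM.

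Growth factor ligands split by gene. Vegfa, the main angiogenic factor, was 28.4, 28.8 and 28.4 FPKM in the RANKL libraries and 17.9, 18 and 16.9 FPKM in the RANKL + UD libraries (log2 fold change −0.78 ± 0.0544, edgeR adjusted p = 6.17e-10). These RANKL + UD values were near the control values of 17.4, 17.8 and 16.1 FPKM. Pdgfb was 26.5, 31.4 and 31.6 FPKM in the RANKL libraries and 19.7, 19.8 and 21.7 FPKM in the RANKL + UD libraries (log2 fold change −0.64 ± 0.0681, edgeR adjusted p = 2.53e-07), and again no library of one group reached the other. The lymphatic factor Vegfc fell from 17.1, 16.4 and 15.4 to 12.4, 12.5 and 13.6 FPKM and Tgfb1 fell from 27.5, 28.1 and 30.5 to 23.6, 23.7 and 23.5 FPKM, with log2 fold changes of −0.43 and −0.37. The semaphorin Sema4d fell from 61.8, 62.4 and 60.9 to 55.02, 54.6 and 56.7 FPKM, and progranulin (Grn) fell from 185, 191 and 198 to 138, 146 and 145 FPKM. Pros1, the anticoagulant protein S and a ligand of TAM receptors, rose from 1.58, 1.67 and 1.38 to 2.58, 2.89 and 2.1 FPKM (log2 fold change 0.62 ± 0.121, edgeR adjusted p = 0.000334). Il18, an interleukin-1 family cytokine, rose from 9.75, 6.93 and 7.94 to 14.6, 11.8 and 11.8 FPKM (log2 fold change 0.55 ± 0.136, edgeR adjusted p = 0.00296). Il18 overlaps Bco2 on the opposite strand, and since the counting tool's strand setting is not given in the sources used here, reads of such a pair cannot be told apart. Further genes named here have such a neighbour, among them Acsl5 (Zdhhc6), Acss2 (Gss), Adam17 (Iah1), Cdca8 (9930104L06Rik), Ncapg (Lcorl), Pdgfb (Gm41361), Lilrb4a (Gm40645), Cd44 (Gm23731) and Cd9 (Gm28809). The same holds for Cyp51 (Akap9), Srebf1 (Rai1), Cdc23 (Kif20a) and Cdc26 (Slc31a1), which had no call. Pdgfa, which also has an opposite-strand neighbour, 6330403L08Rik, rose from 5.04, 5.06 and 5.97 to 6.52, 7.23 and 6.79 FPKM (log2 fold change 0.27), a call lost under an alternative. Tnf itself had no call at 21.1, 20.6 and 23.1 FPKM with RANKL and 21.8, 20.8 and 22.01 FPKM with RANKL + UD, and Il1b, Il27 and Osm also had no call.

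Chemokines went both ways, with 3 of 11 tested genes higher (27.3%) and 4 lower (36.4%). Ccl2, the attractant of CCR2-bearing monocytes, was 6.06, 5.59 and 5.73 FPKM in the RANKL libraries and 13.01, 10.9 and 12.4 FPKM in the RANKL + UD libraries (log2 fold change 0.98 ± 0.135, edgeR adjusted p = 7.32e-06). All RANKL + UD libraries were above the RANKL libraries and above the control libraries, which stood at 8.4, 8.81 and 7.05 FPKM. Its receptor Ccr2 moved the other way, as given with the receptors. Cxcl10, an interferon-induced chemokine, rose from 0.29, 0.44 and 0.44 to 1.02, 1.06 and 0.9 FPKM, and Ccl25 rose from 0.82, 0.63 and 0.64 to 1.87, 1.78 and 1.66 FPKM, though Ccl25 overlaps Elavl1 on the opposite strand and both genes are low. Cxcl2, a neutrophil attractant, was 4.29, 5.2 and 5.27 FPKM in the RANKL libraries and 3.94, 2.19 and 2.18 FPKM in the RANKL + UD libraries (log2 fold change −0.89 ± 0.173, edgeR adjusted p = 0.000329). Its groups were separate although RANKL + UD library 1 came close to the lowest RANKL library, and control libraries were far higher at 44.7, 44.8 and 36.98 FPKM. Cxcl16, a transmembrane chemokine with Zmynd15 on the opposite strand, fell from 4.18, 4.69 and 4.59 to 3.03, 3.31 and 3.03 FPKM, and Ccl6, with E230016K23Rik on the opposite strand, fell from 4.55, 3.08 and 3.19 to 2.32, 2.7 and 2.29 FPKM. Ccl9, an osteoclast and macrophage chemokine and the most abundant of the list, fell from 828, 809 and 857 to 765, 742 and 737 FPKM (log2 fold change −0.24 ± 0.0436, edgeR adjusted p = 0.000178), a small change next to its level. The list median of −0.12 became 0.05 when low genes were kept, so no direction is given for chemokines as a group.

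In the list of secreted proteases, inhibitors and complement, proteases and inhibitors fell more often than they rose. Most tested complement genes rose. The inhibitors included genes whose products act mainly inside cells, such as Cstb and Serpinb1a. Among 12 tested proteases 5 were lower (41.7%) and 1 higher (8.33%). Among 11 inhibitors 6 were lower (54.5%) and 1 higher (9.09%). Among 4 complement genes 3 were higher (75.0%). F10, which encodes coagulation factor X, was 7.3, 7.14 and 7.64 FPKM in the RANKL libraries and 1.7, 1.71 and 1.84 FPKM in the RANKL + UD libraries (log2 fold change −2.16 ± 0.114, edgeR adjusted p = 1.07e-11). Control libraries, at 6.67, 7.16 and 6.79 FPKM, were close to the RANKL libraries, and only the RANKL + UD libraries were low. Mmp12, the macrophage elastase, was 13.04, 12.6 and 12.6 FPKM in the RANKL libraries and 4.73, 4.18 and 3.94 FPKM in the RANKL + UD libraries (log2 fold change −1.66 ± 0.0678, edgeR adjusted p = 2.18e-13). Here control libraries were highest at 27.8, 25.2 and 25.9 FPKM, and the 3 groups formed 3 steps without overlap. Plau, the urokinase-type plasminogen activator, fell from 166, 166 and 165 to 112, 107 and 111 FPKM (log2 fold change −0.68 ± 0.0451, edgeR adjusted p = 3.43e-10), and its receptor Plaur fell from 11.6, 13.6 and 13.4 to 8.65, 7.59 and 6.77 FPKM (log2 fold change −0.83 ± 0.0933, edgeR adjusted p = 5e-07).

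Of the inhibitors, Timp2, a metalloproteinase inhibitor, fell from 8.83, 9.07 and 7.96 to 5.29, 5.35 and 5.85 FPKM (log2 fold change −0.74 ± 0.0949, edgeR adjusted p = 3.06e-06), and Serpinb1a, an inhibitor of neutrophil proteases, fell from 2.07, 2.11 and 2.35 to 1.44, 1.49 and 1.23 FPKM (log2 fold change −0.74 ± 0.242). The cysteine protease inhibitors differed among themselves. Cstb fell from 495, 464 and 538 to 392, 333 and 311 FPKM and Cst3 fell from 314, 329 and 345 to 272, 291 and 296 FPKM, whereas Cst7, or cystatin F, rose from 4.48, 6.35 and 4.97 to 11.97, 10.1 and 10.98 FPKM (log2 fold change 0.98 ± 0.16, edgeR adjusted p = 4.93e-05). The central complement component C3 rose from 1.94, 2.27 and 2.38 to 3.78, 3.74 and 4.02 FPKM (log2 fold change 0.72 ± 0.0987, edgeR adjusted p = 6.6e-06), below its control level of 8.78 ± 0.414 FPKM (mean ± SD). Properdin (Cfp) rose from 70.01, 74.3 and 74.1 to 84.2, 93.6 and 89.7 FPKM, and the surface sheddase Adam10 rose from 59.8, 60.1 and 56.7 to 72.1, 77.4 and 74.8 FPKM, with log2 fold changes of 0.21 and 0.26. The related sheddase Adam17 had no call, at 38.1, 36.9 and 34.4 FPKM with RANKL and 37.03, 36.6 and 38.1 FPKM with RANKL + UD.

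In the matrix and matricellular list, which also held secreted lectins, lysozymes and lipoprotein proteins, 11 of 26 tested genes fell (42.3%) and 4 rose (15.4%). The median was −0.14. Lgals3, which encodes galectin-3, was 610.4, 642 and 689 FPKM in the RANKL libraries and 349.98, 340.2 and 347 FPKM in the RANKL + UD libraries (log2 fold change −0.99 ± 0.0494, edgeR adjusted p = 4.6e-12). The RANKL + UD libraries were nearly level with each other and far below both the RANKL libraries and the control libraries, which held 576, 573 and 609 FPKM. Pltp, a phospholipid transfer protein of lipoproteins, was 33.4, 37.3 and 37.5 FPKM in the RANKL libraries and 15.3, 16.4 and 16.8 FPKM in the RANKL + UD libraries (log2 fold change −1.24 ± 0.0656, edgeR adjusted p = 1.07e-11), without overlap, but it lies opposite to the lysosomal gene Ctsa. Gpnmb, a transmembrane glycoprotein of macrophages and osteoclasts, fell from 285, 279.7 and 285 to 192, 194 and 189 FPKM (log2 fold change −0.65 ± 0.0416, edgeR adjusted p = 1.85e-10), and osteopontin (Spp1) fell from 1053, 1043 and 1073 to 793, 777 and 765 FPKM (log2 fold change −0.53 ± 0.0447, edgeR adjusted p = 9.66e-09). Lipoprotein lipase (Lpl) fell from 388, 382 and 365 to 267, 274 and 277 FPKM, and Ecm1 fell from 3.1, 3.75 and 4.3 to 2.56, 1.53 and 2.59 FPKM. Apoe, the main apolipoprotein of macrophages, rose from 1.88, 1.5 and 2.29 to 4.9, 4.3 and 3.79 FPKM (log2 fold change 1.11 ± 0.191, edgeR adjusted p = 9.14e-05), so that its lowest RANKL + UD library exceeded the highest RANKL library and the control mean of 2.43 ± 0.51 FPKM. Lgals3bp, which binds galectin-3, rose from 19.3, 21.3 and 22.4 to 27.3, 29.4 and 27.7 FPKM, the opposite direction to Lgals3, and the laminin chain Lamc1 rose from 10.99, 11.9 and 10.6 to 12.9, 13.8 and 13.9 FPKM.

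**Figure D2:**
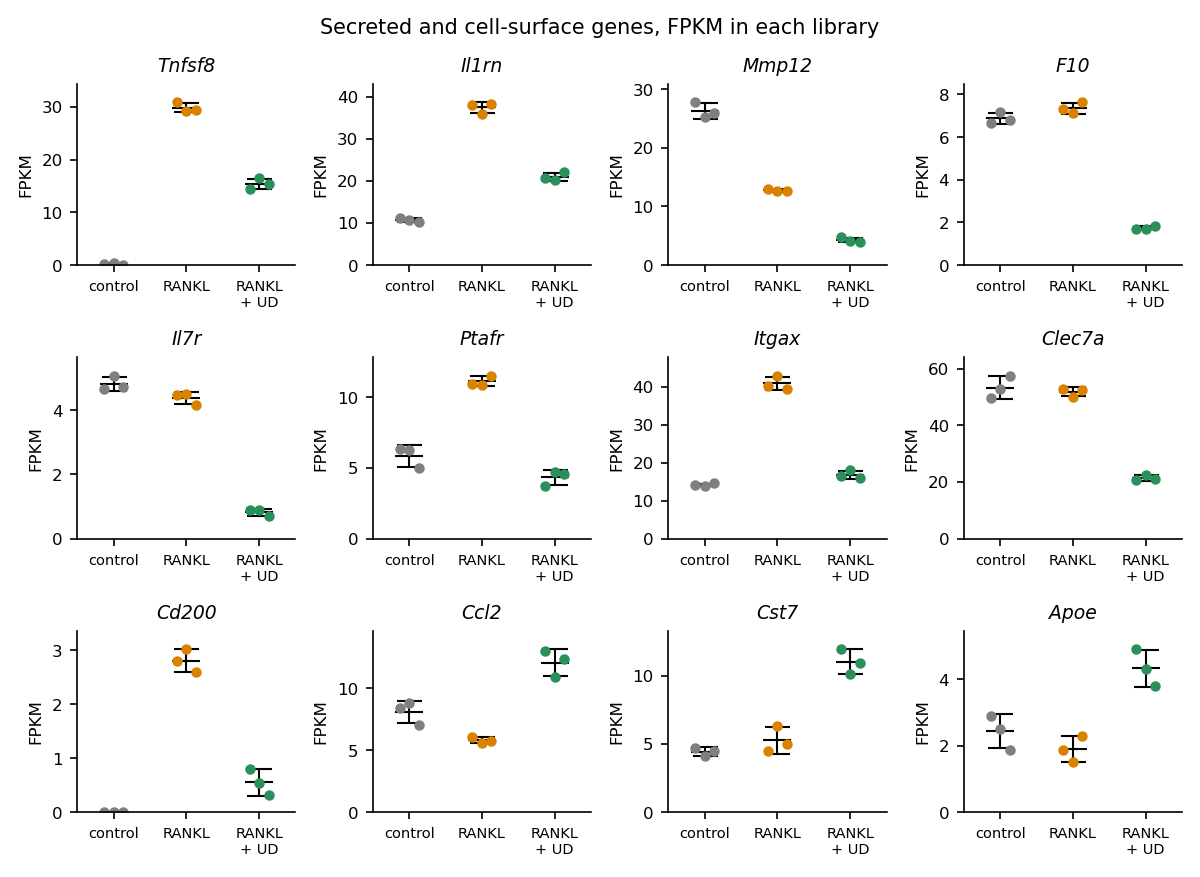
FPKM (vertical axes, starting at 0) of 12 secreted and surface genes in each library, with points for the 3 libraries of a group, grey for control, orange for RANKL and green for RANKL + UD, and black bars for the mean ± SD. Tnfsf8, Il1rn, Mmp12, F10, Il7r, Ptafr, Itgax, Clec7a and Cd200 were lower with RANKL + UD than with RANKL in every library, and Ccl2, Cst7 and Apoe were higher.

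Of the receptors for cytokines and growth factors, 22 of 63 tested genes fell (34.9%) and 4 rose (6.35%). Their median of −0.08 became 0.01 with total counts or with limma on log2(FPKM + 1), so the group as a whole has no firm direction and the single genes are given. Il7r, the interleukin-7 receptor, was 4.48, 4.52 and 4.16 FPKM in the RANKL libraries and 0.88, 0.89 and 0.7 FPKM in the RANKL + UD libraries (log2 fold change −2.49 ± 0.124, edgeR adjusted p = 4.31e-12). The control libraries, at 4.65, 5.08 and 4.73 FPKM, lay with the RANKL libraries, and all RANKL + UD libraries were under 1 FPKM. Tnfrsf9, which encodes the costimulatory receptor 4-1BB, was 7.55, 7.24 and 7.87 FPKM in the RANKL libraries and 2.47, 3.11 and 3.3 FPKM in the RANKL + UD libraries (log2 fold change −1.44 ± 0.119, edgeR adjusted p = 6.04e-09). No RANKL + UD library reached the lowest RANKL library, and control libraries stood at 4.54, 4.47 and 4.33 FPKM. Tgfbr1, the type I TGF-β receptor, was 46.9, 45.5 and 41.1 FPKM in the RANKL libraries and 28.3, 29.7 and 28.9 FPKM in the RANKL + UD libraries (log2 fold change −0.70 ± 0.0579, edgeR adjusted p = 6.04e-09), while its partner Tgfbr2 had no call at 21.7, 21.7 and 20.8 FPKM with RANKL and 21.9, 21.2 and 21.5 FPKM with RANKL + UD. Acvrl1, another type I receptor of this family, fell from 3.18, 3.46 and 2.91 to 1.78, 1.42 and 1.89 FPKM (log2 fold change −0.99 ± 0.127, edgeR adjusted p = 2.97e-06). Csf2rb and Csf2rb2, near-identical copies of a shared β chain between which reads can be split, fell from 7.31, 8.54 and 8.54 to 6.28, 6.05 and 6.29 FPKM and from 12.97, 12.2 and 11.5 to 6.78, 6.74 and 7 FPKM. Axl, a TAM receptor that Gas6 engages, fell from 10.99, 10.2 and 10.6 to 7.66, 7.81 and 8.51 FPKM (log2 fold change −0.49 ± 0.0924). Csf1r, the M-CSF receptor that macrophages need to survive, fell from 181, 189 and 185 to 159, 172 and 170.4 FPKM, with a log2 fold change of −0.23, and overlaps Hmgxb3 on the opposite strand. The costimulatory receptor Cd40 rose from 0.91, 0.68 and 0.81 to 1.46, 1.37 and 1.43 FPKM (log2 fold change 0.74 ± 0.194). Of the 4 interferon receptor chains, Ifnar1 fell, with a log2 fold change of −0.26, and the other 3 had no call.

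G-protein-coupled receptors had 19 of 41 tested genes lower (46.3%) and 5 higher (12.2%), with a median of −0.27. The lower genes included 4 of 9 chemokine receptors (44.4%) and 9 of 16 receptors for purines and lipid mediators (56.2%). Ptafr, the receptor of platelet-activating factor, was 10.9, 10.9 and 11.5 FPKM in the RANKL libraries and 3.69, 4.72 and 4.54 FPKM in the RANKL + UD libraries (log2 fold change −1.46 ± 0.105, edgeR adjusted p = 1.08e-09). Control libraries, at 6.33, 6.28 and 4.96 FPKM, lay between the groups and overlapped neither. Hcar2, the receptor of niacin and ketone bodies, was 4.34, 4.34 and 4.4 FPKM in the RANKL libraries and 1.4, 1.56 and 1.98 FPKM in the RANKL + UD libraries (log2 fold change −1.50 ± 0.158, edgeR adjusted p = 2.09e-07). Ccr2 was 3.18, 2.86 and 2.97 FPKM in the RANKL libraries and 1.67, 1.6 and 1.51 FPKM in the RANKL + UD libraries (log2 fold change −1.0 ± 0.102, edgeR adjusted p = 1.34e-07), and the control libraries lay at the level of the RANKL libraries with 3.24, 3.2 and 2.92 FPKM. The RANKL + UD libraries of both genes were low without overlap. The sphingosine 1-phosphate receptor S1pr1 fell from 1.47, 1.22 and 1.54 to 0.55, 0.46 and 0.21 FPKM (log2 fold change −1.85 ± 0.227) and S1pr2 fell from 6.14, 7.41 and 6.52 to 4.82, 5.61 and 5.29 FPKM (log2 fold change −0.44 ± 0.0906). Cxcr4, the receptor of CXCL12, fell from 1.57, 1.52 and 1.93 to 0.42, 0.31 and 0.54 FPKM from a low level. C3ar1, the receptor of the C3a fragment, fell from 7.49, 6.91 and 6.45 to 4.31, 3.55 and 3.43 FPKM (log2 fold change −0.97 ± 0.094, edgeR adjusted p = 6.65e-08), while its ligand gene C3 rose. P2ry6, the receptor of the uridine nucleotide UDP, had no call, although its FPKM ranges were separate, at 5.96, 6.43 and 6.36 FPKM with RANKL and 7.66, 6.52 and 7.26 FPKM with RANKL + UD, and P2ry2, which UTP and ATP activate, fell from 1.54, 2.07 and 1.49 to 1.22, 1 and 0.86 FPKM (log2 fold change −0.81 ± 0.195). Gpr65, a proton-sensing receptor, rose from 2.16, 1.7 and 2.12 to 4.11, 4.24 and 4.2 FPKM (log2 fold change 0.98 ± 0.137, edgeR adjusted p = 8.39e-06), and its libraries stayed under the control mean of 13.8 ± 1.02 FPKM. Adgre1, which encodes F4/80, rose from 9.75, 10.8 and 9.8 to 11.97, 12.1 and 13.6 FPKM, and the prostaglandin E2 receptor Ptger4, opposite to Ttc33, rose from 1.79, 1.5 and 1.74 to 2.39, 2.2 and 2.18 FPKM, with log2 fold changes of 0.22 and 0.34.

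Pattern recognition, scavenger and lectin receptors had 18 of 40 tested genes lower and 7 higher, with a median of −0.18. The 3 classes differed in their counts, with 8 of 14 C-type lectins lower and 0 higher, 4 of 14 Toll-like receptors and coreceptors in each direction, and 6 of 12 scavenger receptors lower and 3 higher. Clec7a, which encodes the β-glucan receptor Dectin-1, was 53.02, 50.2 and 52.7 FPKM in the RANKL libraries and 20.7, 22.6 and 21.1 FPKM in the RANKL + UD libraries (log2 fold change −1.36 ± 0.06, edgeR adjusted p = 7.43e-13). Its control libraries, at 49.6, 52.8 and 57.6 FPKM, lay around the RANKL libraries, and the RANKL + UD libraries were all below both. Clec5a, a DAP12-coupled lectin, fell from 117, 110.5 and 107 to 70.9, 73.3 and 69.7 FPKM (log2 fold change −0.73 ± 0.0466, edgeR adjusted p = 1.69e-10), and Klra2, a Ly49-family lectin, fell from 3.4, 3.24 and 3.08 to 1.23, 2.03 and 1.95 FPKM. Lrp1, a large endocytic receptor, fell from 76.5, 78.7 and 68.9 to 45.2, 48.5 and 49.4 FPKM (log2 fold change −0.73 ± 0.0567, edgeR adjusted p = 2.53e-09), and the scavenger receptor Colec12 fell from 28.7, 27.7 and 27.8 to 17.7, 18.4 and 18.4 FPKM. Sorl1, a sorting receptor, rose from 1.76, 2.03 and 1.66 to 3.33, 3.73 and 3.61 FPKM (log2 fold change 0.88 ± 0.0768, edgeR adjusted p = 1.47e-08), and the lysosomal receptor Scarb2 rose from 12.4, 12.3 and 12.8 to 18.8, 19.3 and 17.9 FPKM. Both rose without overlap, Sorl1 to a level under its control mean of 13 ± 0.505 FPKM.

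Within the Toll-like receptors, Tlr2 rose from 34.8, 37.8 and 34.99 to 44.4, 42.9 and 43.6 FPKM, Tlr7 rose from 21.5, 21.9 and 19.1 to 24.8, 27.2 and 25.8 FPKM and Tlr1 rose from 4.94, 5.07 and 4.3 to 5.93, 5.57 and 6.63 FPKM, with log2 fold changes of 0.20, 0.23 and 0.25. The call of Tlr1 was lost under an alternative that left out no library. The lipopolysaccharide coreceptor Cd14 fell from 163, 157 and 170.3 to 135, 139.7 and 131 FPKM (log2 fold change −0.36 ± 0.0467, edgeR adjusted p = 3.26e-06), and Tlr4 fell with a log2 fold change of −0.37, although its RANKL and RANKL + UD libraries overlapped. Ly86 and Cd180 form a complex, and they went opposite ways. Ly86 (MD-1) rose from 5.13, 4.02 and 6.09 to 10.1, 9.13 and 8.61 FPKM (log2 fold change 0.78 ± 0.108, edgeR adjusted p = 6.72e-06), whereas Cd180 fell from 36.6, 40.1 and 36.1 to 32.9, 32.4 and 32.2 FPKM (log2 fold change −0.30 ± 0.0512, edgeR adjusted p = 8.98e-05).

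Fc, paired and immunoglobulin-type receptors had 25 of 47 tested genes lower (53.2%) and 4 higher (8.51%), with a median of −0.31. Of 24 tested paired receptors 14 fell (58.3%) and 2 rose (8.33%). Pirb was 6.47, 5.4 and 5.81 FPKM in the RANKL libraries and 2.54, 2.43 and 2.23 FPKM in the RANKL + UD libraries (log2 fold change −1.38 ± 0.102, edgeR adjusted p = 1.55e-09). Lilrb4b was 57.03, 53.3 and 52.3 FPKM in the RANKL libraries and 26.9, 24.8 and 23.4 FPKM in the RANKL + UD libraries (log2 fold change −1.20 ± 0.0554, edgeR adjusted p = 1.36e-12). The libraries of the groups did not overlap for either gene, but both belong to families with close copies between which reads may be split, and the copy Lilrb4a fell from 103, 97.5 and 86.8 to 59.1, 62.8 and 58.7 FPKM. Fcgr3, the low-affinity activating IgG receptor, was 5.06, 5.78 and 6.4 FPKM in the RANKL libraries and 2.34, 2.19 and 3.03 FPKM in the RANKL + UD libraries (log2 fold change −1.27 ± 0.143, edgeR adjusted p = 5e-07), and the inhibitory Fcgr2b fell from 5.38, 6.67 and 6.03 to 3.93, 3.54 and 3.24 FPKM. Fcgr1, the high-affinity receptor, had no call at 1.82, 1.66 and 1.85 FPKM with RANKL and 1.59, 2.25 and 2.21 FPKM with RANKL + UD, far under the control mean of 28.3 ± 1.34 FPKM. Cd200r1, the inhibitory receptor of CD200, fell from 14.98, 14.2 and 14.7 to 7.28, 6.72 and 7.85 FPKM (log2 fold change −1.09 ± 0.074, edgeR adjusted p = 4.56e-10). The 4 genes that rose did so by less or at low level. They were Cd80 (from 18.9, 17.4 and 18.6 to 22.4, 21.6 and 21.6 FPKM), Nectin2 (from 2.56, 2.81 and 2.58 to 3.25, 3.79 and 3.56 FPKM), Cd48 (from 2.05, 2.31 and 2.63 to 3.17, 3.4 and 3.85 FPKM) and Trem3, and none of the 4 passed the threshold with DESeq2. Class II genes H2-Eb1 and H2-Aa fell with log2 fold changes of −1.05 and −0.83, and the class I gene H2-K1 had no call.

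Adhesion molecules, integrins and tetraspanins had 39 of 68 tested genes lower (57.4%) and 9 higher (13.2%), with a median of −0.35. Of 11 integrin chains 9 fell (81.8%) and 2 rose (18.2%), and of 13 tetraspanins 9 fell (69.2%) and 1 rose (7.69%). Cd200, the ligand of Cd200r1, was 2.81, 3.02 and 2.59 FPKM in the RANKL libraries and 0.8, 0.54 and 0.31 FPKM in the RANKL + UD libraries (log2 fold change −2.42 ± 0.252, edgeR adjusted p = 3.92e-07). It was listed at 0 in each control library, and the RANKL + UD libraries lay between the others. Cd200 therefore met the FPKM limit only through the RANKL libraries. Itgax, the αX chain CD11c, was 40.2, 42.9 and 39.5 FPKM in the RANKL libraries and 16.6, 18.02 and 15.9 FPKM in the RANKL + UD libraries (log2 fold change −1.37 ± 0.0557, edgeR adjusted p = 2.18e-13). The RANKL + UD libraries were just above the control libraries at 14.1, 13.8 and 14.5 FPKM. Itgav, the αv chain that osteoclasts pair with β3, fell from 65.96, 63.4 and 57.5 to 38.2, 39.03 and 37.9 FPKM (log2 fold change −0.78 ± 0.0506, edgeR adjusted p = 2.02e-10), and the shared β2 chain Itgb2 fell from 160.1, 167 and 171 to 125, 124 and 124 FPKM (log2 fold change −0.50 ± 0.0479, edgeR adjusted p = 4.79e-08). Itga4, the α4 chain, rose from 93.9, 91.2 and 74.6 to 117, 122 and 119 FPKM (log2 fold change 0.38 ± 0.062, edgeR adjusted p = 5.88e-05), with a wider spread among the RANKL libraries than among the RANKL + UD libraries.

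Of 21 tested surface enzymes and other antigens, 10 fell (47.6%), 2 rose (9.52%) and 9 had no call. Anpep, or aminopeptidase N, was 49.3, 50.5 and 50.6 FPKM in the RANKL libraries and 22.3, 21.9 and 21.9 FPKM in the RANKL + UD libraries (log2 fold change −1.27 ± 0.0665, edgeR adjusted p = 9.93e-12), and Cd83, a maturation marker of antigen-presenting cells, was 30.8, 32.2 and 34.3 FPKM in the RANKL libraries and 14.3, 15.6 and 15.4 FPKM in the RANKL + UD libraries (log2 fold change −1.19 ± 0.0733, edgeR adjusted p = 1.21e-10). In both genes each RANKL + UD library was below every RANKL library. The hyaluronan receptor Cd44 fell from 90, 87.1 and 85.4 to 61.4, 59.7 and 60.5 FPKM (log2 fold change −0.62 ± 0.0437, edgeR adjusted p = 8.34e-10), and the ectonucleotidase Entpd1 fell from 1.02, 1.05 and 0.93 to 0.25, 0.4 and 0.42 FPKM (log2 fold change −1.61 ± 0.179, edgeR adjusted p = 4.38e-07). Abundant tetraspanins, Cd9 and Cd53, fell from 308, 321 and 336 to 226, 213 and 214 FPKM and from 287, 285 and 288 to 219, 209 and 209 FPKM, with log2 fold changes of −0.65 and −0.52. Tspan3 was the tetraspanin that rose, from 13.3, 13.7 and 15.4 to 19.98, 19.2 and 18.6 FPKM (log2 fold change 0.36 ± 0.063). Ly6e rose from 56.6, 62.3 and 63.2 to 99.1, 103 and 96.3 FPKM (log2 fold change 0.63 ± 0.0639, edgeR adjusted p = 1.29e-07) and the sialomucin Cd164 rose from 16.4, 16.1 and 16.4 to 22.02, 22.2 and 23.6 FPKM, both without overlap.

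In lipid metabolism, enzymes that make cholesterol and fatty acids rose more often than they fell, mostly by less than 1.5-fold. Sphingolipid genes, uptake and storage genes and efflux genes fell more often than they rose. Among 20 tested cholesterol synthesis enzymes 7 were higher (35.0%, against 18.6% of all genes) and 1 lower (5.0%, against 20.2%). Only 1 (5.0%) was higher by over 1.5-fold, a share near the 4.38% of all genes. The list median was 0.10, near the 0.086 by which scaling by total counts moved the median of all genes. Acat2, at the entry of the pathway, was 10.9, 9.72 and 12.5 FPKM in the RANKL libraries and 19.5, 18.5 and 17.7 FPKM in the RANKL + UD libraries (log2 fold change 0.66 ± 0.0902, edgeR adjusted p = 5.95e-06). Sc5d, a late sterol desaturase, was 10.9, 11.97 and 11.6 FPKM in the RANKL libraries and 17.3, 18.4 and 16.9 FPKM in the RANKL + UD libraries (log2 fold change 0.52 ± 0.0575, edgeR adjusted p = 3.76e-07). Both genes were higher in each RANKL + UD library than in any RANKL library, and their control means were 21.1 ± 1.79 and 17 ± 0.151 FPKM. Idi1, which isomerises the isoprenoid unit, rose from 18.9, 17.3 and 17.2 to 24.99, 25.1 and 24.2 FPKM, and the sterol carrier Stard4 rose from 19.9, 19.03 and 17.98 to 29.02, 29.1 and 28.5 FPKM (log2 fold change 0.52 ± 0.0527, edgeR adjusted p = 1.26e-07). The enzymes Cyp51, Fdps and Lss had no call. Msmo1 was the enzyme that fell. The regulators Srebf2 and Insig1 fell by 0.14 and 0.19 on the log2 scale with overlapping FPKM ranges.

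Hmgcs1, an early synthase of the pathway, rose from 39.3, 37.6 and 38.8 to 47.4, 45.4 and 46.5 FPKM (log2 fold change 0.18 ± 0.0483). Its promoter is shown because it was 1 of 2 windows, out of 19 for this list, that held the sterol element searched for (TCACCCCAC or TCACCCCAT on either strand), against 0.729% of the windows of all tested genes. The stretch is the 150 bases before the RefSeq start at chr13:119690201-119690350 (plus strand) of GRCm38.p6, written 5′ to 3′ on the gene's strand, with the element in capitals.
Hmgcs1: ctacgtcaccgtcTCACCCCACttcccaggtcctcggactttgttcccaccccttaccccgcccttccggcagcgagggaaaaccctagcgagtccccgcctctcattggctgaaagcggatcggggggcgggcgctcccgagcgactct
The element began 137 bases before the start. A match of letters describes the window and shows nothing about binding.

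Fatty acid synthesis and desaturation had 9 of 26 tested genes higher (34.6%) and 4 lower (15.4%), with a median of 0.02. By over 1.5-fold, 2 rose and 2 fell (7.69% each, against 4.38% and 5.49% of all genes). Elovl6, which lengthens palmitate to stearate, was 4.87, 5.08 and 4.7 FPKM in the RANKL libraries and 10.04, 11.8 and 8.97 FPKM in the RANKL + UD libraries (log2 fold change 0.99 ± 0.0809, edgeR adjusted p = 6.04e-09). The RANKL + UD libraries were all above the RANKL libraries, and the control libraries stood at 12.2, 12.4 and 12.2 FPKM. Fasn, the fatty acid synthase, was 16.5, 17.8 and 16.9 FPKM in the RANKL libraries and 24.1, 25.98 and 27.1 FPKM in the RANKL + UD libraries (log2 fold change 0.50 ± 0.0621, edgeR adjusted p = 1.62e-06). Me1, the malic enzyme that supplies NADPH, rose from 6.45, 6.29 and 6.04 to 11.5, 11.8 and 11.4 FPKM (log2 fold change 0.80 ± 0.1, edgeR adjusted p = 2.16e-06), past the control mean of 4.4 ± 0.853 FPKM. The desaturase Scd1 rose from 26, 25.2 and 24.5 to 34.3, 36.02 and 35.1 FPKM (log2 fold change 0.39 ± 0.0464, edgeR adjusted p = 1.03e-06), while its more abundant relative Scd2 had no call at 336, 337 and 331 FPKM with RANKL and 355, 369 and 365 FPKM with RANKL + UD. The regulator Srebf1 had no call. Acyl-CoA synthetases split, since Acsl5 and Acsl1 rose with log2 fold changes of 0.30 and 0.17, Acsl3 fell from 42.5, 42.7 and 41.1 to 25.8, 28.01 and 28.5 FPKM (log2 fold change −0.70 ± 0.059, edgeR adjusted p = 7.96e-09; it shares its strand with Utp14b), and Acsl4 fell from 61.3, 58.8 and 55.6 to 55.4, 55.6 and 54.02 FPKM, a call that was lost under an alternative. Hacd1, a dehydratase of chain elongation, fell from 3.86, 3.4 and 4.09 to 1.56, 1.65 and 1.86 FPKM (log2 fold change −1.25 ± 0.195, edgeR adjusted p = 3.06e-05), and Acss2, which activates acetate, fell from 1.72, 1.8 and 1.94 to 1.28, 1.39 and 1.34 FPKM.

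**Figure D3:**
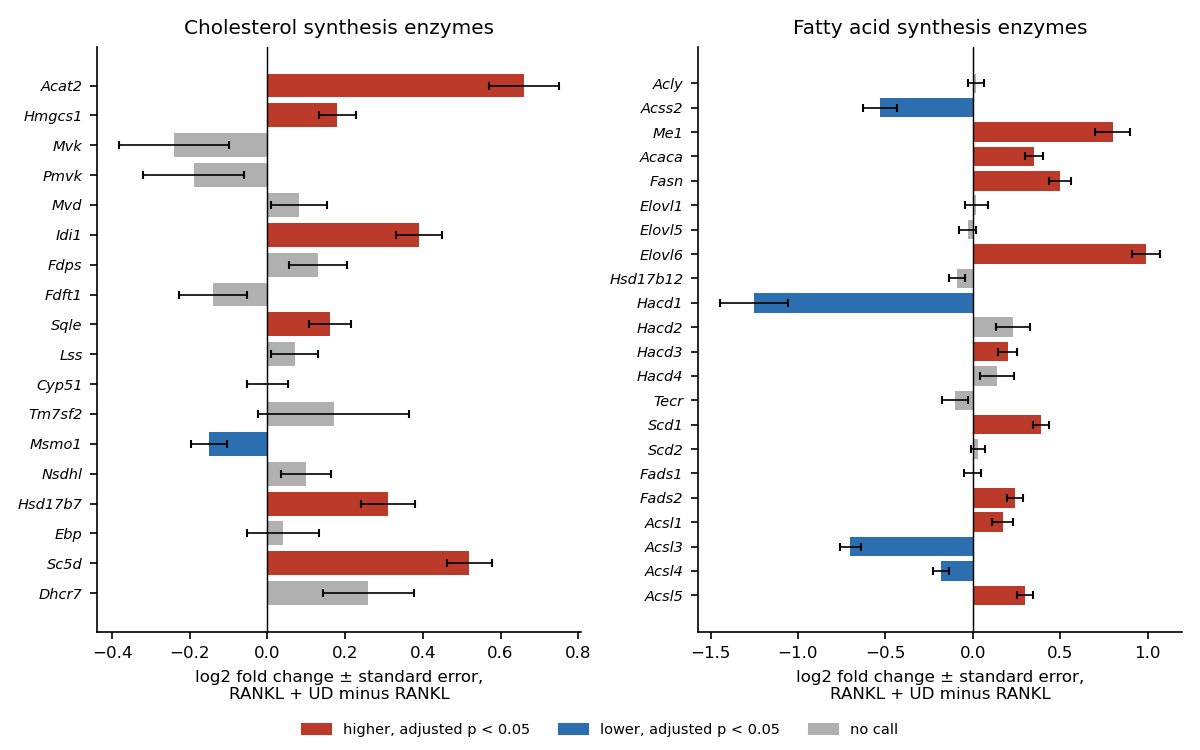
Bars give the log2 fold change in RANKL + UD minus RANKL with its standard error (horizontal axes, which differ in range) for the enzymes of cholesterol synthesis (left) and fatty acid synthesis (right) named on the vertical axes, with red for higher, blue for lower and grey for no call at an adjusted p under 0.05. Acat2, Sc5d and Idi1 led the rise on the left, Elovl6, Me1 and Fasn led it on the right, and Hacd1, Acsl3 and Acss2 lay furthest below 0.

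Efflux, storage and oxidation genes had 16 of 49 tested genes lower (32.7%) and 6 higher (12.2%), with a median of −0.11. Hilpda, an inhibitor of lipolysis on lipid droplets, was 23.9, 24.3 and 25.1 FPKM in the RANKL libraries and 12.6, 11.4 and 10.7 FPKM in the RANKL + UD libraries (log2 fold change −1.16 ± 0.129, edgeR adjusted p = 3.98e-07). The control libraries, at 6.84, 5.37 and 3.86 FPKM, were lowest, and the RANKL + UD libraries lay between without overlap. Droplet coat genes Plin3 and Plin2 fell from 14.02, 15.7 and 15.2 to 8.87, 10.9 and 10.96 FPKM and from 32.2, 32.3 and 37.97 to 26.9, 27.96 and 29 FPKM, and the lipase Pnpla2 fell from 12.2, 13.1 and 13.7 to 10.3, 11.04 and 10.9 FPKM. Abca1, the cholesterol exporter, fell from 3.21, 3.43 and 2.94 to 2.11, 2.27 and 2.12 FPKM (log2 fold change −0.65 ± 0.08, edgeR adjusted p = 1.67e-06), whereas Abcg1 had no call at 15.8, 16.4 and 16.1 FPKM with RANKL and 15.3, 16.3 and 15.9 FPKM with RANKL + UD. Npc2, which passes cholesterol out of lysosomes, fell from 157, 156 and 173 to 118, 109 and 113 FPKM (log2 fold change −0.60 ± 0.0579, edgeR adjusted p = 5.57e-08), and its membrane partner Npc1, opposite to Rmc1, fell from 12.3, 12.7 and 12.5 to 10.1, 9.95 and 9.9 FPKM. Of 20 genes of fatty acid oxidation 3 rose (15.0%), 2 fell (10.0%) and 15 had no call, with both shares below those of all genes. Cpt1a, the gate of mitochondrial import, rose from 7.03, 6.93 and 6.67 to 10.7, 9.72 and 9.58 FPKM (log2 fold change 0.46 ± 0.0635, edgeR adjusted p = 7.88e-06), Hadh rose from 5.91, 6.22 and 6.15 to 7.74, 8.96 and 8.2 FPKM, and the droplet gene Fitm2 rose from 2.33, 2.96 and 2.16 to 3.65, 3.46 and 3.52 FPKM. The remodelling enzyme Lpcat3, opposite to Emg1, rose from 11.8, 11.8 and 10.9 to 14.2, 14.6 and 15.1 FPKM.

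Phospholipid, sphingolipid and eicosanoid genes had 31 of 86 tested genes lower (36.0%) and 15 higher (17.4%). Their median of −0.09 became 0 with total counts or limma. Sphingolipid genes had 16 of 29 lower (55.2%) and 2 higher (6.9%). Glycerophospholipid genes had 13 of 45 lower (28.9%) and 11 higher (24.4%), against 20.2% and 18.6% of all genes. Pla2g7, the secreted phospholipase that inactivates platelet-activating factor, was 3.37, 3.28 and 2.85 FPKM in the RANKL libraries and 0.37, 0.32 and 0.42 FPKM in the RANKL + UD libraries (log2 fold change −3.18 ± 0.261, edgeR adjusted p = 5.97e-09). It had the largest fall of any member of the 16 lists, and in control libraries it was at 0.06, 0 and 0 FPKM. Pla2g7 met the FPKM limit only through the RANKL libraries, so it entered as a gene that was high there. Gm2a, the activator that presents ganglioside GM2 to hexosaminidase, was 75.8, 77.04 and 82.3 FPKM in the RANKL libraries and 41.5, 40.4 and 41.2 FPKM in the RANKL + UD libraries (log2 fold change −1.02 ± 0.0481, edgeR adjusted p = 1.81e-12). Hexa, the α subunit of that enzyme, fell by 0.46 on the log2 scale, and Gla fell from 21.6, 22.2 and 22.99 to 14.6, 17.7 and 16.1 FPKM. The groups were separate for each of these lysosomal genes. Lpin3, a phosphatidate phosphatase, fell from 2.65, 2.07 and 2.61 to 1.28, 0.88 and 1.08 FPKM, and Pld3 fell from 31.2, 34.8 and 34.3 to 19.1, 21.3 and 19.1 FPKM. Dpep2, which cleaves leukotriene D4 and has Dus2 and Gm45752 on the opposite strand, fell from 6.46, 6.41 and 6.47 to 2.98, 3.51 and 2.86 FPKM (log2 fold change −1.14 ± 0.0857, edgeR adjusted p = 1.86e-09). Alox5, which starts leukotriene synthesis, rose from 3.1, 3.73 and 3.67 to 4.56, 5.42 and 5.47 FPKM (log2 fold change 0.47 ± 0.0916, edgeR adjusted p = 0.00036), far below its control mean of 45 ± 2.87 FPKM. Smpdl3b, a membrane phosphodiesterase, rose from 4.53, 5.75 and 5.59 to 9.74, 8.68 and 8.11 FPKM (log2 fold change 0.66 ± 0.103, edgeR adjusted p = 3.1e-05), Sgpp1 rose from 8.62, 8.42 and 8.55 to 11.1, 11.4 and 11.8 FPKM, and Tamm41, a cardiolipin synthesis enzyme, rose from 1.13, 1.38 and 1.37 to 1.66, 2.49 and 2.04 FPKM. The prostaglandin synthase Ptgs2 had no call at 0.83, 1.12 and 0.77 FPKM with RANKL and 0.69, 0.87 and 0.73 FPKM with RANKL + UD.

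Genes of the 3 mitosis lists rose as a group, and the rise spread over kinases, kinetochore, spindle and chromosome structure. Of 194 tested genes in these lists 147 were higher (75.8%, against 18.6% of all genes), 5 were lower and 42 had no call. The lists were chosen with earlier results of these data known, so these shares are not independent of the data. Of the genes that the deposited annotation gives to cell division, 41.8% were higher. In 165 the RANKL + UD libraries were all above the RANKL libraries, against 34.1% of all genes. The changes were moderate, from 0.14 to 1.03 on the log2 scale for the genes that rose, and 52 of them exceeded 1.5-fold. The share over 1.5-fold was 29.4% for mitotic kinases, 25.5% for the kinetochore and 26.1% for the spindle, against 4.38% of all genes. The median FPKM over the 194 genes was 12.3 in the control libraries, 7.65 under RANKL and 11.1 when UD was added, where the comparison of RANKL with control shares the RANKL libraries with this one. Counting every member, 197 genes were listed and the 3 not tested were below the limit. The direction of the 3 lists was the same under every scaling tried.

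Cyclins, kinases and their phosphatases had 26 of 31 genes higher (83.9%) and 2 lower (6.45%), with a median of 0.54. Cdk1, the kinase that triggers mitosis, was 10.7, 10.5 and 10.4 FPKM in the RANKL libraries and 17.6, 20.9 and 19.6 FPKM in the RANKL + UD libraries (log2 fold change 0.80 ± 0.0614, edgeR adjusted p = 2.45e-09). Ccnb1, its cyclin, was 18.7, 18.1 and 19.6 FPKM in the RANKL libraries and 32.1, 32.2 and 32.3 FPKM in the RANKL + UD libraries (log2 fold change 0.69 ± 0.0545, edgeR adjusted p = 3.51e-09). The control libraries of Cdk1, at 18.4, 17.8 and 18.02 FPKM, lay inside the range of its RANKL + UD libraries. Those of Ccnb1, at 34.04, 30.7 and 31.7 FPKM, lay around its RANKL + UD libraries. Aurka, the centrosomal Aurora kinase, was 11.8, 14.98 and 14.9 FPKM in the RANKL libraries and 27.5, 28.7 and 25.9 FPKM in the RANKL + UD libraries (log2 fold change 0.89 ± 0.0876, edgeR adjusted p = 7.87e-08). Pbk, a mitotic kinase, was 13.9, 14.8 and 15.3 FPKM in the RANKL libraries and 33.6, 32.2 and 29.5 FPKM in the RANKL + UD libraries (log2 fold change 1.03 ± 0.0717, edgeR adjusted p = 6.48e-10), the largest rise of the 3 lists. In each of these genes every RANKL + UD library exceeded every RANKL library.

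Other regulators rose with them. Plk1, the main Polo-like kinase, rose from 11.4, 11.6 and 11.1 to 19.4, 22.7 and 20.96 FPKM, Aurkb rose from 7.98, 7.24 and 7.89 to 13.3, 14.1 and 15.4 FPKM, and Ccna2, opposite to Exosc9, rose from 20.9, 20.9 and 21.9 to 34.9, 36.6 and 37.01 FPKM. Mybl2, or B-Myb, which activates mitotic genes, was 6.67, 6.88 and 7.47 FPKM in the RANKL libraries and 14.2, 14.7 and 14.5 FPKM in the RANKL + UD libraries (log2 fold change 0.96 ± 0.0773, edgeR adjusted p = 4.61e-09). With Mybl2 the RANKL and control libraries were alike, at 6.93, 6.05 and 7.36 FPKM in control, and only the RANKL + UD libraries were high. E2f8, a repressor of the E2F family, rose from 3.38, 2.98 and 3.16 to 6.66, 6.49 and 6.02 FPKM (log2 fold change 0.93 ± 0.101, edgeR adjusted p = 3.26e-07), and Foxm1 rose from 9.26, 11.2 and 10.5 to 13.8, 13.9 and 13.8 FPKM. Of 20 genes of the anaphase-promoting complex, its activators and separase, 8 rose (40.0%), 1 fell (5.0%) and 11 had no call. The core subunits Anapc1 and Anapc5 rose by 0.14 and 0.17 on the log2 scale. The subunits Anapc2, Anapc4, Anapc7, Anapc10, Cdc23, Cdc26 and Cdc27 had no call and Cdc16 fell from 19.4, 18.9 and 19.1 to 17.9, 17.7 and 18.1 FPKM, a call lost under an alternative. The activator Fzr1, opposite to Mfsd12, had no call at 5.47, 5.76 and 6.86 FPKM with RANKL and 7.34, 7.99 and 6.71 FPKM with RANKL + UD, and its groups overlapped. The activator Cdc20, opposite to Elovl1, rose from 20.6, 21.7 and 21.1 to 30.5, 30.03 and 34 FPKM, the ubiquitin carrier Ube2c rose from 13.9, 15.2 and 15.2 to 24.4, 23.3 and 20.5 FPKM, and securin (Pttg1) rose from 9.11, 8.9 and 10.9 to 15.7, 15.7 and 14.9 FPKM.

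Plk2 went against the rest. This Polo-like kinase, known chiefly as an early response and stress gene rather than a mitotic one, was 16.3, 16.3 and 16.4 FPKM in the RANKL libraries and 4.43, 4.56 and 5.2 FPKM in the RANKL + UD libraries (log2 fold change −1.88 ± 0.081, edgeR adjusted p = 5.48e-13). The RANKL libraries were nearly level, the control libraries stood at 8.42, 7.66 and 9.17 FPKM, and the RANKL + UD libraries were below both. Nek6, opposite to Psmb7, fell from 4.76, 5.04 and 4.8 to 4.19, 4.26 and 4.09 FPKM (log2 fold change −0.31 ± 0.0683), and Plk3 had no call.

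The kinetochore and checkpoint list had 44 of 55 genes higher (80.0%) and 0 lower, with a median of 0.39. The broader groups of the deposited annotation had lower medians, with 59 of 118 genes higher and 12 lower (median 0.18) for the kinetochore and 40 of 94 higher and 14 lower (median 0.14) for the mitotic spindle. Within the list, the rise took in 14 of 15 outer kinetochore genes (93.3%) and 16 of 18 genes of the checkpoint and passenger complex (88.9%). It also took in 14 of 22 inner kinetochore genes (63.6%). Spc25 and Nuf2, subunits of the NDC80 complex that holds microtubules, rose from 6.29, 6.05 and 6.67 to 11.5, 11.9 and 11.3 FPKM (log2 fold change 0.78 ± 0.0817, edgeR adjusted p = 1.8e-07) and from 6.48, 6.36 and 5.5 to 11.4, 10.7 and 10.8 FPKM (log2 fold change 0.76 ± 0.0681, edgeR adjusted p = 2.29e-08). The other subunits of that complex, Ndc80 and Spc24, rose by 0.29 and 0.47 on the log2 scale, so all 4 subunits passed the test. Haspin, the histone H3 kinase that recruits the passenger complex, was 4.1, 3.65 and 5.03 FPKM in the RANKL libraries and 8.04, 8.92 and 8.96 FPKM in the RANKL + UD libraries (log2 fold change 0.93 ± 0.11, edgeR adjusted p = 9.68e-07). The passenger complex itself rose in each member, with log2 fold changes of 0.80 for Aurkb, 0.68 for Birc5, 0.38 for Cdca8 and 0.37 for Incenp. Sgo2a, a shugoshin that guards centromeric cohesion and lies opposite to Kctd18, rose from 1.9, 1.85 and 1.96 to 3.18, 3.18 and 3.77 FPKM (log2 fold change 0.74 ± 0.0994, edgeR adjusted p = 5.07e-06). Checkpoint genes Mad2l1 and Bub1b rose from 6.2, 6.25 and 6.1 to 10.3, 11.4 and 10.8 FPKM and from 26.5, 26.9 and 26.1 to 37.2, 38.9 and 38.8 FPKM, and Mad1l1 had no call.

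**Figure D4:**
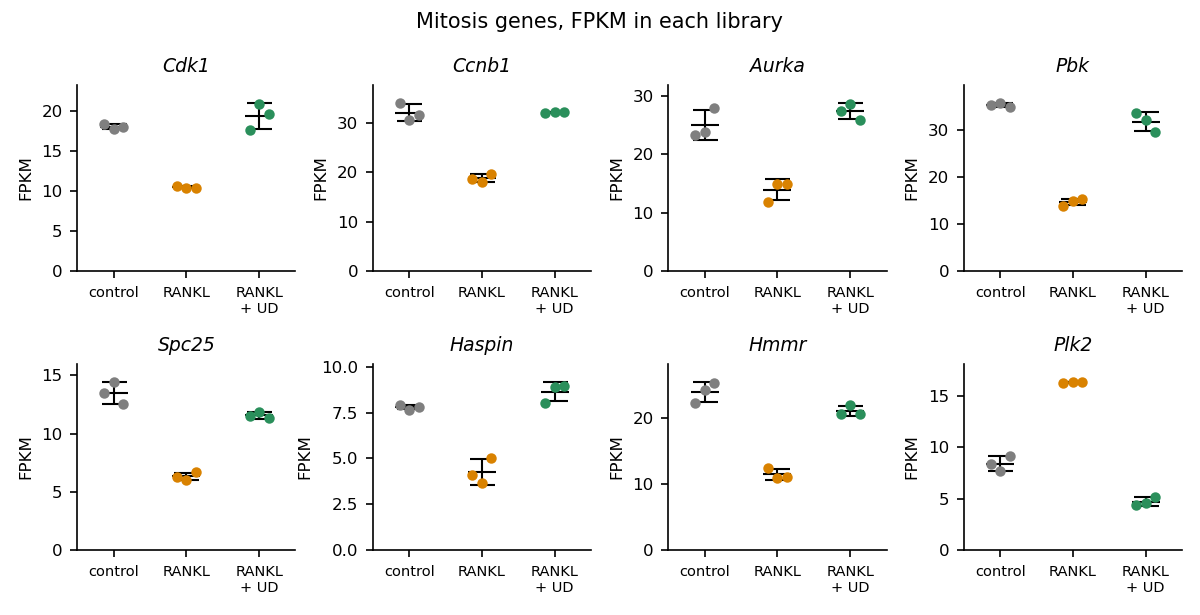
FPKM (vertical axes, starting at 0) of 8 genes of the mitosis lists in each library, with points for the 3 libraries of a group, grey for control, orange for RANKL and green for RANKL + UD, and black bars for the mean ± SD. The RANKL + UD libraries were above the RANKL libraries for Cdk1, Ccnb1, Aurka, Pbk, Spc25, Haspin and Hmmr, and below them for Plk2.

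Spindle, chromosome and cytokinesis genes had 69 of 88 tested genes higher (78.4%) and 2 lower (2.27%), with a median of 0.44. Gtse1, a microtubule-binding regulator, was 4.61, 4.66 and 4.73 FPKM in the RANKL libraries and 8.35, 8.74 and 10.1 FPKM in the RANKL + UD libraries (log2 fold change 0.87 ± 0.106, edgeR adjusted p = 1.49e-06). Hmmr, a spindle assembly factor, was 12.4, 10.9 and 11.01 FPKM in the RANKL libraries and 20.5, 21.9 and 20.6 FPKM in the RANKL + UD libraries (log2 fold change 0.79 ± 0.0616, edgeR adjusted p = 2.91e-09), and Psrc1, which acts with microtubules at the spindle, rose from 6.46, 6.08 and 6.88 to 11.6, 11.3 and 12.6 FPKM (log2 fold change 0.79 ± 0.0817, edgeR adjusted p = 1.72e-07). None of their groups overlapped. The kinesins Kif11, Kif20b and Kif24 rose from 12.9, 12.8 and 12.1 to 19.1, 20.4 and 20.9 FPKM, from 10.2, 9.97 and 9.16 to 16.3, 17.6 and 16.1 FPKM and from 1.42, 1.8 and 1.41 to 2.82, 3.25 and 2.8 FPKM, whereas Kif2a had no call. The proliferation antigen Mki67 rose from 50.98, 52.2 and 42.4 to 82.3, 85.7 and 84.3 FPKM (log2 fold change 0.71 ± 0.0639, edgeR adjusted p = 2.41e-08), and topoisomerase Top2a rose from 45.2, 45.5 and 40.9 to 69.6, 71.8 and 71.4 FPKM (log2 fold change 0.61 ± 0.0482, edgeR adjusted p = 3.77e-09). Condensin subunits Smc2, Ncapg, Ncaph and Ncapd2 rose with log2 fold changes of 0.39, 0.55, 0.53 and 0.38, while the cohesin genes Rad21, Stag1, Stag2, Nipbl and Wapl, which also act in interphase, had no call. The ESCRT gene Chmp4b fell from 70.4, 67.1 and 72.3 to 64.3, 59.5 and 59.4 FPKM and Septin9 fell by 0.17 on the log2 scale with overlapping groups, and both also serve outside cell division. Roles outside cell division were noted only for genes that did not rise, and genes that rose may share them.

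Promoters of genes that peak in mitosis are known to carry a cell cycle genes homology region (CHR) bound by MuvB complexes and CCAAT boxes bound by NF-Y. RefSeq windows of GRCm38.p6, 250 bases before to 50 after each gene's start, were matched by symbol for 8369 of the 11995 tested genes and for 163 genes of the mitosis lists. The CHR letters searched were TTTGAA and TTTAAA, the CCAAT box was CCAAT, and the E2F site was TTTCCCGC, TTTGGCGC, TTTCGCGC or TTTGCCGC, each on both strands. The CHR letters were found in 87 of 163 mitosis windows (53.4%), against 19.3% of all windows, and CCAAT in 99 (60.7%), against 39.6%. Among the 124 mitosis windows of genes that rose, 62.1% held the CHR letters and 68.5% a CCAAT box, and 49.2% held both. Among the other 39 mitosis windows, these shares were 25.6%, 35.9% and 10.3%. E2F letters were in 11.3% of the windows of genes that rose, in 10.3% of the others and in 4.48% of all. These shares are descriptions of windows and were not tested.

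**Figure D5:**
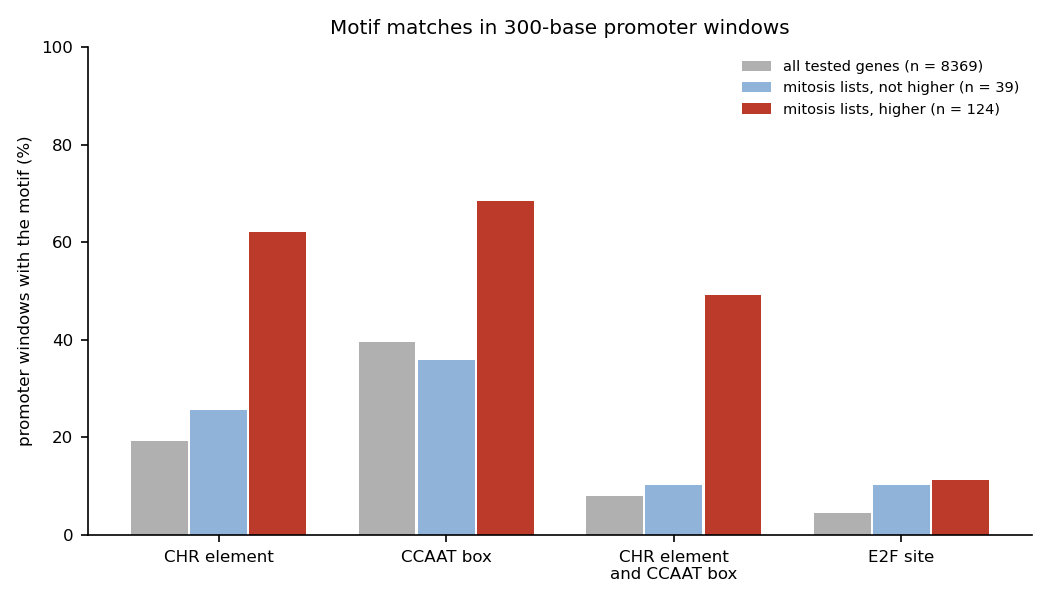
Bars give the share of 300-base promoter windows that held each motif (vertical axis, percent), in grey for all 8369 windows, light blue for 39 windows of mitosis genes that were not higher and red for 124 windows of mitosis genes that were higher with RANKL + UD. The pair of CHR letters and CCAAT box stood in 7.91%, 10.3% and 49.2% of these windows.

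Ccnb1, Cdk1, Plk1 and E2f8, which rose, and Plk2, which fell, were picked by hand for display. They do not stand for all genes that rose. Of the 124 windows of mitosis genes that rose, 49.2% held both motifs. The 300-base windows of Mybl2 and Nuf2, which also rose, held neither. That of Haspin held no CCAAT box, and those of Sgo2a, Kif24 and Psrc1 held no CHR letters. The 150 bases before the start of the 5 genes are shown, with CHR and CCAAT letters of either strand in capitals. They lie at chr13:100786487-100786636 (minus strand) for Ccnb1, chr10:69352913-69353062 (minus strand) for Cdk1, chr7:122159285-122159434 (plus strand) for Plk1, chr7:48881597-48881746 (minus strand) for E2f8 and chr13:110394894-110395043 (plus strand) for Plk2, in GRCm38.p6, and run 5′ to 3′ on the strand of the gene.
Ccnb1: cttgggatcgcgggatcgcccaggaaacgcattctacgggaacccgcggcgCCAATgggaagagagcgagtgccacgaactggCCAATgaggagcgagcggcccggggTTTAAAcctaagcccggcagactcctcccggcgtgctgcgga
Cdk1: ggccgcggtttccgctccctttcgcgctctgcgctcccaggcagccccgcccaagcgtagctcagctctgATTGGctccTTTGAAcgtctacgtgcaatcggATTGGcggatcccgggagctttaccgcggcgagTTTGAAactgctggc
Plk1: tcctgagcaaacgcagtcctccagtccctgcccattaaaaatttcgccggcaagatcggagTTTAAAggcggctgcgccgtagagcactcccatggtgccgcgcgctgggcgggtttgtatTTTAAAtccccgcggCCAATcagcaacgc
E2f8: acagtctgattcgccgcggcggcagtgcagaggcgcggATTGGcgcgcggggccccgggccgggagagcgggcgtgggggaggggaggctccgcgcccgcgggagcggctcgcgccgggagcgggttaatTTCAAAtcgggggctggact
Plk2: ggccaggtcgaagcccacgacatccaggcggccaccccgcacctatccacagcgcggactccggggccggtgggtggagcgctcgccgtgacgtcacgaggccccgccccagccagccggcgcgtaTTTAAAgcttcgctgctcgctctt
In Ccnb1 the CHR letters began 42 bases before the start and the CCAAT boxes 99 and 67 bases before it. Cdk1 held CHR letters 71 and 15 bases before the start and CCAAT boxes, in reverse as ATTGG, 80 and 48 bases before it in this stretch. Plk1 held CHR letters 89 and 29 bases and a CCAAT box 14 bases before the start, and E2f8 held reversed CHR letters 20 bases and a reversed CCAAT box 112 bases before it. Plk2, which fell, held CHR letters 24 bases before its start and no CCAAT box in this stretch. A match is a string of letters and not a measured site, and TTTAAA also resembles other elements near a start.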

How the data were processed

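Per the labels, 9 poly(A)-selected strand-specific RAW264.7 libraries, called replicate biosamples, were sequenced (3 control, 3 RANKL, 3 RANKL + UD, 3 days), with mm10 as the genome build. The authors deposited 1 table with whole-number counts and FPKM per gene and library; the aligner, the counting tool and its strand setting are not given in the sources used here. The coordinates in that table differ from GENCODE M21 for most genes, so none are printed. Samples were grouped by title. The deposited counts of all 9 libraries were fitted in edgeR 4.0.16 (R 4.3.3) with TMM factors and the quasi-likelihood test, over 11995 genes that reached 1 FPKM in 3 or more libraries, with Benjamini-Hochberg adjustment. Deposited FPKM values serve as levels. Depth was 15951800 to 19746862 counts per library, and counting error alone is smaller than the replicate spread for well-expressed genes (chi-square per degree of freedom between replicates was 3.02 to 9.92).

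The 16 gene lists and their members were chosen with earlier results of these data known. In each list, values are given for up to 4 genes that rose most and 4 that fell most among those with an adjusted p under 0.05, FPKM ranges that do not overlap and a mean of at least 2 FPKM in 1 group, and over all genes for 8 and 8 by the same conditions; other members are named where a role is described. Some items are not reported here. Alternatives were DESeq2 1.42.0, limma 3.58.1 on log2(FPKM + 1), RLE factors, total counts, no FPKM filter (at least 10 counts in total), at least 5 FPKM, only the 6 libraries, a replicate block and each library left out. The test was run on simulated data first. Promoter sequences are RefSeq windows of GRCm38.p6.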

Additional observations from a re-analysis of the deposited data

How the results depend on the processing

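The counts of higher and lower genes, 2233 and 2418, were 2059 and 2501 with DESeq2 and 3348 and 1709 with total counts. With limma on log2(FPKM + 1), 1556 genes were lower and 327 were lower by over 1.5-fold, and with at least 5 FPKM, which left fewer genes to test, 240 were higher and 404 lower by over 1.5-fold. Total counts and limma moved the median of all genes by 0.086 and 0.08. With total counts the list medians were −0.11 for cytokines and growth factors, −0.2 for proteases, inhibitors and complement, −0.05 for matrix, 0.01 for cytokine and growth factor receptors, −0.18 for G-protein-coupled receptors, −0.09 for pattern recognition receptors, −0.23 for Fc and paired receptors, −0.26 for adhesion, 0.19 for cholesterol synthesis, 0.1 for fatty acid synthesis, −0.03 for efflux and storage, 0 for phospholipid genes, 0.43 for mitotic kinases, 0.47 for the kinetochore and 0.52 for the spindle. With limma they were, in the same order but without cholesterol synthesis, −0.11, −0.05, −0.06, 0.01, −0.12, −0.08, −0.17, −0.23, 0.1, −0.02, 0, 0.4, 0.43 and 0.47. With at least 5 FPKM they were −0.27 for cytokines, −0.03 for proteases, −0.26 for matrix, −0.15 for cytokine receptors, −0.41 for adhesion, 0.07 for fatty acid synthesis, −0.06 for phospholipid genes, 0.47 for mitotic kinases and 0.41 for the spindle. With no FPKM filter they were 0.05 for chemokines and −0.11 for pattern recognition receptors.

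Leaving out 1 library at a time gave 1853 to 2461 higher and 2094 to 2604 lower genes, and 489 to 537 and 636 to 675 over 1.5-fold. List medians then ran from −0.37 to −0.28 for Fc and paired receptors, −0.39 to −0.31 for adhesion, −0.27 to −0.15 for G-protein-coupled receptors, −0.23 to −0.1 for chemokines, 0.07 to 0.14 for cholesterol synthesis, −0.11 to −0.07 for cytokine receptors, −0.23 to −0.19 for cytokines, 0 to 0.02 for fatty acid synthesis, 0.38 to 0.41 for the kinetochore, −0.12 to −0.06 for efflux and storage, −0.23 to −0.11 for matrix, 0.34 to 0.42 for mitotic kinases, −0.21 to −0.14 for pattern recognition receptors, −0.11 to −0.04 for phospholipid genes, −0.32 to −0.22 for proteases and 0.43 to 0.46 for the spindle. Of these medians, 17 moved by more than their spread between replicates and 127 did not. Medians that changed by over 1.5 times included −0.23 for matrix without RANKL + UD replicate 3 and −0.15 for G-protein-coupled receptors without RANKL replicate 1. They also included −0.06 for efflux and storage and −0.23 for chemokines without RANKL replicate 2, and −0.19 for chemokines without RANKL + UD replicate 1 or 3. Phospholipid genes stood at −0.04 without RANKL + UD replicate 1 and −0.05 without RANKL replicate 3. The fatty acid median of 0.02 went down to 0 at its lowest. The 4 higher genes among the Fc and paired receptors became 0 with DESeq2 and 0 without RANKL + UD replicate 2, RANKL + UD replicate 3 or RANKL replicate 2.

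Of 119 genes chosen by the naming rule, 0 changed direction and 18 missed the threshold under at least 1 alternative, 8 of them under one that left out no library (Pdgfa, Tlr1, Cd48, Nectin2, Cd80, Acsl4, Cdc16 and Mir7213). Same-numbered libraries had correlations of their deviations from the group means between −0.0194 and 0.0984, so no strong shared replicate effect was seen. With 3 libraries a group these cannot settle whether the samples were paired, and the labels do not say. With the replicate number as a block, 2347 genes were higher and 2518 lower, and 523 and 662 over 1.5-fold. The cause of these shifts was not tested. Genes near 1 FPKM rest on few reads, and with 3 libraries a group a p-value for a single gene from permutation alone could not go below 0.1.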

Other observations

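Trib3, a pseudokinase induced by cell stress and one of the 8 strongest decreases over all genes, was 16.1, 17.97 and 19.2 FPKM in the RANKL libraries and 2.56, 2.74 and 2.78 FPKM in the RANKL + UD libraries (log2 fold change −2.81 ± 0.108, edgeR adjusted p = 1.12e-13). The RANKL + UD libraries were also below the control libraries, which stood at 7.74, 7.15 and 7.73 FPKM. The following genes were looked up after the value of Trib3 was seen, as the gene of the transcription factor ATF4 and further known targets of it. They were not a fixed list, and no statement on such targets as a group is made. The CHOP gene Ddit3, which has Mars1 on the opposite strand, was 30.4, 26.97 and 29.9 FPKM in the RANKL libraries and 7.66, 6.19 and 6.56 FPKM in the RANKL + UD libraries (log2 fold change −2.18 ± 0.0974, edgeR adjusted p = 8.9e-13). Chac1, which degrades glutathione, fell from 8.37, 7.78 and 7.01 to 1.18, 1.87 and 1.73 FPKM, and Atf3 fell from 19.8, 18.4 and 18.3 to 3.64, 5.64 and 4.27 FPKM, with log2 fold changes of −2.37 and −2.16. Asparagine synthetase (Asns) fell from 83.4, 83.8 and 84.8 to 53.7, 53.7 and 53.9 FPKM, and Atf4 itself fell from 143, 142 and 150.5 to 102, 108 and 102 FPKM, with log2 fold changes of −0.73 and −0.57. The amino acid transporter chains Slc3a2 and Slc7a11 fell by 0.95 and 1.02 on the log2 scale. Of the serine synthesis genes, Phgdh fell from 45.4, 49.99 and 49.1 to 34.8, 36.8 and 34.6 FPKM while Psat1 had no call at 84.2, 84.4 and 85.3 FPKM with RANKL and 90.5, 95.1 and 92.9 FPKM with RANKL + UD, and Shmt2 had no call either.

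Some genes of pyrimidine metabolism were looked up after the results were known, because uridine is a pyrimidine nucleoside, and they were not a fixed list either. Of the synthesis route, Cad rose from 9.59, 10.4 and 10.1 to 13.9, 14.5 and 14.99 FPKM (log2 fold change 0.44 ± 0.0637, edgeR adjusted p = 1.26e-05), Dhodh rose from 1.34, 1.3 and 1.52 to 2.22, 2.33 and 2.64 FPKM and Umps rose from 13.3, 13.5 and 12.7 to 17.9, 18.4 and 18.4 FPKM, with log2 fold changes of 0.70 and 0.38 for the latter pair. Of the uridine kinases, Uck2 was 47.7, 46.6 and 49.8 FPKM in the RANKL libraries and 63.7, 67.1 and 66.03 FPKM in the RANKL + UD libraries (log2 fold change 0.36 ± 0.0465, edgeR adjusted p = 2.76e-06), and Uck1, opposite to Pomt1, rose from 4.56, 5.98 and 4.85 to 6.79, 8.31 and 6.5 FPKM. The ranges of these 5 genes were separate. The related genes Uckl1, Cmpk1 and Ctps2 and the nucleoside transporters Slc29a1 and Slc29a2 had no call, the transporter Slc29a3 fell with overlapping ranges, and Slc29a1 stood at 7.03, 8.34 and 8.04 FPKM with RANKL and 7.34, 8.21 and 8.65 FPKM with RANKL + UD.

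The 8 strongest increases over all genes included Txnip and Arrdc4, arrestin-domain genes that respond to glucose. Txnip, which has Gm15441 on the opposite strand, was 39.5, 38.5 and 41.3 FPKM in the RANKL libraries and 196, 202 and 205 FPKM in the RANKL + UD libraries (log2 fold change 2.25 ± 0.0476, edgeR adjusted p = 5.17e-18). Control libraries were higher still at 329.7, 348 and 339.9 FPKM. Arrdc4 rose from 0.45, 0.41 and 0.46 to 3.63, 2.98 and 3.63 FPKM (log2 fold change 2.86 ± 0.17, edgeR adjusted p = 6.58e-11), which brought it to the control level of 3, 3.85 and 3.14 FPKM. The rest of these 16 genes were mostly short or unnamed transcripts with few reads, so their counts are given and no fold. Mir7213, which lies within Pdgfb, had 5, 4 and 3 counts with RANKL and 0 in each RANKL + UD library, Gm22980 had 11, 4 and 1 against 0 in each, and Mir7240 had 0 in each RANKL library against 5, 3 and 4. Slc36a3os had 37, 17 and 40 counts with RANKL against 0, 4 and 5, Gm41609 had 188, 188 and 217 against 29, 21 and 32, Gm14846 had 26, 8 and 16 against 1, 2 and 4, and Gm11874 had 16, 10 and 8 against 1, 0 and 4. Gm48135 had 36, 35 and 44 counts with RANKL against 204, 163 and 140, Gm21960 had 5, 1 and 9 against 28, 24 and 15, and Gm27003 had 3, 2 and 2 against 42, 23 and 20. The immunoglobulin joining segments Ighj4 and Ighj1 had 10, 11 and 4 and 4, 3 and 8 counts with RANKL against 43, 32 and 28 and 25, 17 and 29, and these short segments can share reads.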
